A study of Mus musculus with 2 samples.

Results

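A set of genes of choroid plexus epithelium was followed through the hippocampal arrays: Ttr, Folr1, Clic6, Kcne2, Aqp1, Cldn2, Kl, Sostdc1, Enpp2 and Calml4. They are the probes to which the platform annotation gives one of these symbols, 1 probe each, and make up 10 of the 16390 named genes on the array. They were chosen with the ratios on these arrays known, so every ratio over wild type is a description and carries no test. The groups were AtrxdE2+TMPyP4 (mice that carry the allele AtrxΔE2 of Atrx, which encodes a chromatin remodeller, given TMPyP4), AtrxdE2 (the same allele, with no treatment labelled) and wild type (WT). TMPyP4 is a cationic porphyrin that binds G-quadruplex DNA. It was injected intraperitoneally at 30 mg/kg, 2 injections per week, from the age of 30 postnatal days until 90 days. Each RNA was a pool of 5 mice. The ages of the AtrxdE2 and wild-type mice, the sex and the strain of any group, and whether controls received a vehicle were not among the labels. The AtrxdE2+TMPyP4 pool and the AtrxdE2 pool were each labelled with Cy3 and hybridised to 1 array against wild-type RNA labelled with Cy5. With 1 pool per group there are no replicates to set a difference against, and p-values were not computed.

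The choroid plexus is a vascular tuft in each brain ventricle, covered by a single layer of epithelium that secretes cerebrospinal fluid. Ions and water cross the epithelium through apical and basolateral channels, cotransporters and pumps, while its tight junctions set what passes between the cells. The same cells secrete carrier proteins and signalling factors into the fluid and take up folate from blood. The lateral ventricle's choroid plexus lies against the hippocampus.

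Signals are given as spot intensity above the mean of the array's blank spots, in arbitrary units. The Cy3 and Cy5 channels have different scales, with a median probe signal of 79.0 for AtrxdE2+TMPyP4 and 36.01 for wild type on 1 array, and of 64.6 for AtrxdE2 and 42.2 for wild type on the other. Raw signals of a mutant pool and wild type therefore compare only after normalization, as log2 ratios. A probe was above background when it exceeded the blank mean by 2 SD of the blank spots, a limit of 6.53 for AtrxdE2+TMPyP4, 6.60 for AtrxdE2, and 1.84 and 2.46 for wild type on the AtrxdE2+TMPyP4 and AtrxdE2 arrays. Both channels were above background for 81.1% of probes on the AtrxdE2+TMPyP4 array and 84.5% on the AtrxdE2 array. The targeted gene Atrx had a log2 ratio over wild type of -0.36 in AtrxdE2+TMPyP4 and -0.68 in AtrxdE2, with signals of 71.5 and 19.1 in these pools and of 54.6 and 47.4 in wild type on the same arrays. Whether its probe lies in the deleted part was not analysed here. Precision is limited by the number of arrays.

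Promoters of 5 of the 10 genes were found in the RefSeq table of assembly GRCm38.p6: Aqp1, Cldn2, Kl, Calml4 and Kcne2, the last with 2 start sites, which makes 6 promoters of 300 bases (250 before the start site and 50 after it). Ttr, Folr1, Clic6, Sostdc1 and Enpp2 are only named. G-rich stretches are shown because TMPyP4 binds DNA folded from runs of guanine. Searched on both strands, 4 runs of GGG with 1 to 7 bases between them occurred in 2 of the 6 promoters, those of Aqp1 and Kl, against 18.5% of all 32851 promoters of the same length. The bases upstream of Aqp1 (chr6:55336049-55336298, + strand) hold 2 such stretches, from -88 to -64 and from -59 to -35 relative to the start site, in capitals. The bases upstream of Cldn2 (chrX:139800558-139800807, + strand) hold none, and capitals mark a TATAAA from -35 to -30. In Kl the stretch lies after the start site, from +17 to +39 (chr5:150952623-150952645, + strand).
Aqp1: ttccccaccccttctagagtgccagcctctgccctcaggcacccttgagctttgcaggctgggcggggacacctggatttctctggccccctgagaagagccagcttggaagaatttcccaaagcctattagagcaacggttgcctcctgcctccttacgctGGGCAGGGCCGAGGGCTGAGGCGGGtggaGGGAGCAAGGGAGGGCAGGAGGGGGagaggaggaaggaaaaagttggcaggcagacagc
Cldn2: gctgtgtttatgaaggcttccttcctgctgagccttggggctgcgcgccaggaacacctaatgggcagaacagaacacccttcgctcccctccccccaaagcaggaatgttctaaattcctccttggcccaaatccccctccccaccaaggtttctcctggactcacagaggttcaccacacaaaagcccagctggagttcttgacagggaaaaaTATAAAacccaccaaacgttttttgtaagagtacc
Kl: GGGGCGGCGGGAGCGGGGGTGGG
TATAAA was found in 1 of the 6 promoters, against 13.6% of all promoters. TAATCC, the core letters bound by OTX factors, was found in 0 of the 6, against 7.06% of all promoters. GGGCGG, which can overlap the runs of GGG and does so in the stretch of Kl, was found in 4 of the 6 (Aqp1, Calml4, Kcne2 and Kl), against 35.7%. A match is a description of letters in these windows and not of binding.

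All 10 genes were above background in AtrxdE2+TMPyP4, 8 in AtrxdE2, 9 in wild type on the AtrxdE2+TMPyP4 array and 9 in wild type on the AtrxdE2 array. Over all probes of these channels the shares above background were 83.3%, 86.5%, 83.6% and 89.9%, so these counts lie near the background. At or above the channel's median signal were 9 in AtrxdE2+TMPyP4 and 2 in AtrxdE2, against 2 in each wild-type channel. Ttr and Enpp2 were the pair that lay above the median in all 4 channels. A channel's median has as many probes above it as below. Outside the AtrxdE2+TMPyP4 pool, most of these epithelial markers lay below it, and Cldn2 was not above background in any of the other channels. The set was chosen with the ratios over wild type known, so nothing is read from these counts. In bulk RNA, fewer cells of a type and less RNA per cell cannot be told apart.

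**Figure D1:**
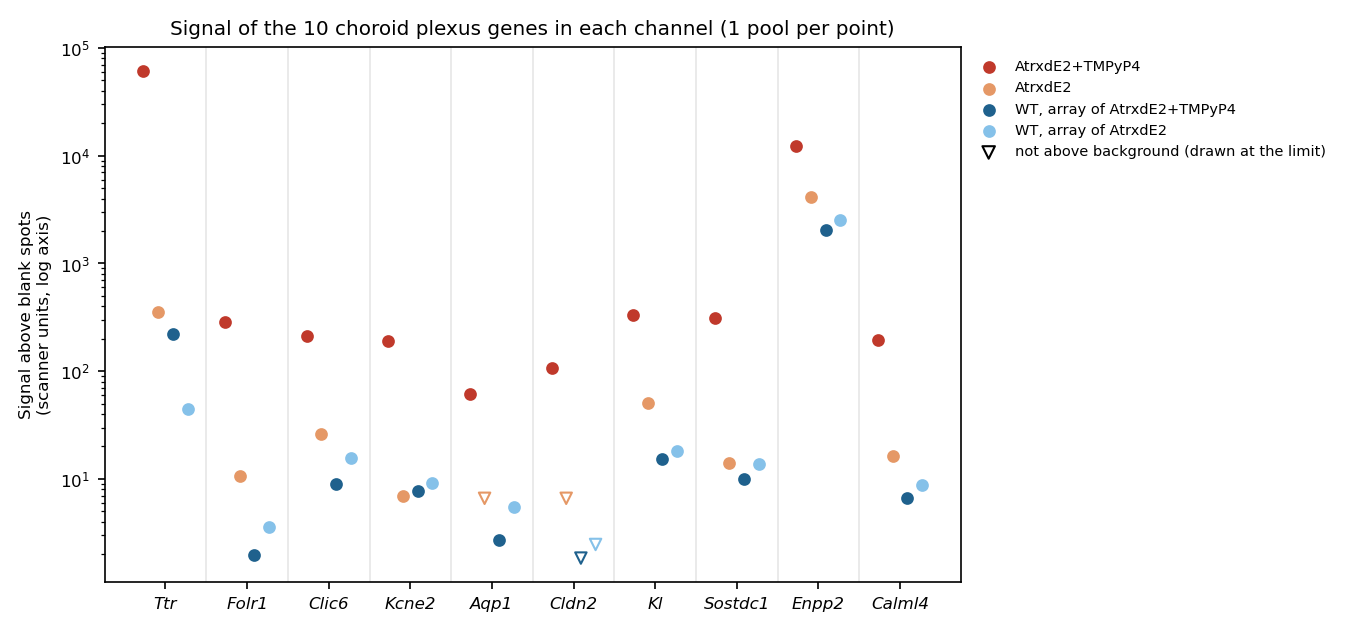
Signal above the blank spots (log axis, arbitrary units) of the 10 genes in AtrxdE2+TMPyP4, AtrxdE2 and both wild-type channels, with open triangles at the detection limit for values not above background. The AtrxdE2+TMPyP4 value is the highest of the 4 for every gene, between 60.8 for Aqp1 and 60791.5 for Ttr, though Cy3 and Cy5 scales differ.

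Ttr encodes transthyretin, the carrier of thyroxine and of the retinol-binding protein that choroid plexus epithelium secretes into cerebrospinal fluid. Its signal was 60791.5 in AtrxdE2+TMPyP4 and 353 in AtrxdE2, against 219 in wild type on the AtrxdE2+TMPyP4 array and 44.3 in wild type on the AtrxdE2 array. The AtrxdE2+TMPyP4 pool thus stood far above the rest, and the wild-type channels differed from each other. Its log2 ratio over wild type was 6.59 in AtrxdE2+TMPyP4 (96.0-fold), the highest of the 13596 measured named genes, and 1.59 in AtrxdE2 (3.01-fold), the second highest. In the authors' value table the same ratios were 6.94 and 2.34. The Ttr spot of AtrxdE2+TMPyP4 was the brightest Cy3 spot of its array, and 1 of 12 Cy3 spots there whose deposited intensity is a whole number of 35526 or more. Whether the scanner's range limited it was not tested.

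The Ttr ratio of the AtrxdE2 pool depended on the wild-type channel it was set against. Normalized wild-type levels of Ttr were 1.78 log2 units higher on the AtrxdE2+TMPyP4 array than on the AtrxdE2 array, beside an SD of 0.36 among the 500 genes with the most similar signal. Set against the wild-type channel of the other array, Ttr had a log2 ratio of 8.36 in AtrxdE2+TMPyP4 and -0.19 in AtrxdE2. The value of -0.19 rests on a wild-type reading from the spot with the Cy3 signal of 60791.5. Whether light from that Cy3 signal entered the reading was not tested. The direction in AtrxdE2+TMPyP4 was thus the same with either wild-type channel, and that in AtrxdE2 was not. Whether the wild-type RNA on both arrays was 1 pool is not stated.

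Folr1 encodes folate receptor alpha, which carries folate through the epithelium into cerebrospinal fluid. Its signal was 284 in AtrxdE2+TMPyP4 and 10.7 in AtrxdE2, against 1.98 and 3.58 in wild type on these arrays. Wild type lay close to the background, at 2.15 SD of the blank spots on the AtrxdE2+TMPyP4 array. The log2 ratio over wild type was 1.93 in AtrxdE2+TMPyP4 (3.82-fold) and 0.073 in AtrxdE2. The authors' value table, which has no offset, gave 6.0 and 0.93. A shift of the channels by 2 SD of the blank spots in opposite directions moves that table's values between 5.01 and 9.88 in AtrxdE2+TMPyP4, and between -1.21 and 3.30 in AtrxdE2. The Folr1 ratio of AtrxdE2+TMPyP4 was thus above 0 over the whole range of the blank spots, and that of AtrxdE2 was not.

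Channels and their regulators were represented by Clic6, of the chloride intracellular channel family, and Kcne2, a small accessory subunit of voltage-gated potassium channels. Clic6 had a signal of 212 in AtrxdE2+TMPyP4 and 26.03 in AtrxdE2, against 9.05 and 15.7 in wild type on the same arrays. Its log2 ratio over wild type was 1.44 in AtrxdE2+TMPyP4 (2.71-fold) and 0.020 in AtrxdE2, and 3.38 and 0.08 in the authors' value table. Kcne2, which sits in the apical membrane of the epithelium, had a signal of 191 in AtrxdE2+TMPyP4 and 6.94 in AtrxdE2, against 7.74 and 9.16 in wild type. The log2 ratio of Kcne2 over wild type was 1.38 in AtrxdE2+TMPyP4 (2.60-fold) and -0.15 in AtrxdE2. In the authors' value table these were 3.46 and -1.05. The AtrxdE2 signal of Kcne2 was barely above the limit of 6.60, and the spread of the blank spots puts that table's value anywhere between -5.77 and 0.36.

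Aqp1 encodes the water channel aquaporin of the apical membrane, and Cldn2 a claudin that forms pores for cations and water in the tight junction. Aqp1 had a signal of 60.8 in AtrxdE2+TMPyP4 and 5.08 in AtrxdE2, the last not above background, against 2.70 and 5.43 in wild type. Its normalized level was at least 1.71-fold higher in AtrxdE2+TMPyP4 than in AtrxdE2, taking the lowest signal above background as the level in AtrxdE2. Over wild type the log2 ratio of Aqp1 in AtrxdE2+TMPyP4 was 0.64, and 3.32 in the authors' value table. Cldn2 had a signal of 108 in AtrxdE2+TMPyP4 and 1.65 in AtrxdE2, against -1.15 and 1.21 in wild type. Only the AtrxdE2+TMPyP4 channel was above background. By the same kind of bound, the channel level of Cldn2 was at least 2.30-fold higher there than in AtrxdE2 or in wild type. Its ratios within the arrays gave less, 2.22-fold over wild type and 2.21-fold as the difference of both ratios. The bound thus holds for channel levels alone.

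Kl, Sostdc1 and Enpp2 encode proteins that are released or act in the fluid. Kl encodes klotho, a co-receptor of fibroblast growth factor signalling whose outer part is shed. Its signal was 329 in AtrxdE2+TMPyP4 and 50.9 in AtrxdE2, against 15.3 and 18.02 in wild type. The log2 ratio of Kl over wild type was 1.74 in AtrxdE2+TMPyP4 (3.33-fold) and 0.30 in AtrxdE2, and 3.25 and 0.85 in the authors' value table. After normalization with the offset, Kl held rank 714 of the 13596 measured genes in AtrxdE2, next after Ttr in the set, whereas Folr1 (0.93) lay above it in the authors' value table.

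Sostdc1 encodes a secreted antagonist of bone morphogenetic proteins that also modulates Wnt signalling. Its signal was 315 in AtrxdE2+TMPyP4 and 14.0 in AtrxdE2, against 10.1 and 13.9 in wild type. The log2 ratio of Sostdc1 over wild type was 1.82 in AtrxdE2+TMPyP4 (3.52-fold) and -0.14 in AtrxdE2, and 3.79 and -0.63 in the authors' value table. Enpp2 encodes autotaxin, the secreted enzyme that makes lysophosphatidic acid, and is also expressed by oligodendrocytes. Its signal was 12205 in AtrxdE2+TMPyP4 and 4108 in AtrxdE2, against 2051 and 2539 in wild type. Enpp2 was bright in every channel, and its log2 ratio over wild type was 1.32 in AtrxdE2+TMPyP4 (2.50-fold) and 0.086 in AtrxdE2. For so bright a probe the authors' value table gave nearly the same numbers, 1.40 and 0.04.

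Calml4 encodes a calmodulin-like protein. Its signal was 193 in AtrxdE2+TMPyP4 and 16.5 in AtrxdE2, against 6.67 and 8.81 in wild type. The log2 ratio over wild type was 1.42 in AtrxdE2+TMPyP4 (2.67-fold) and 0.029 in AtrxdE2, and 3.69 and 0.25 in the authors' value table.

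**Figure D2:**
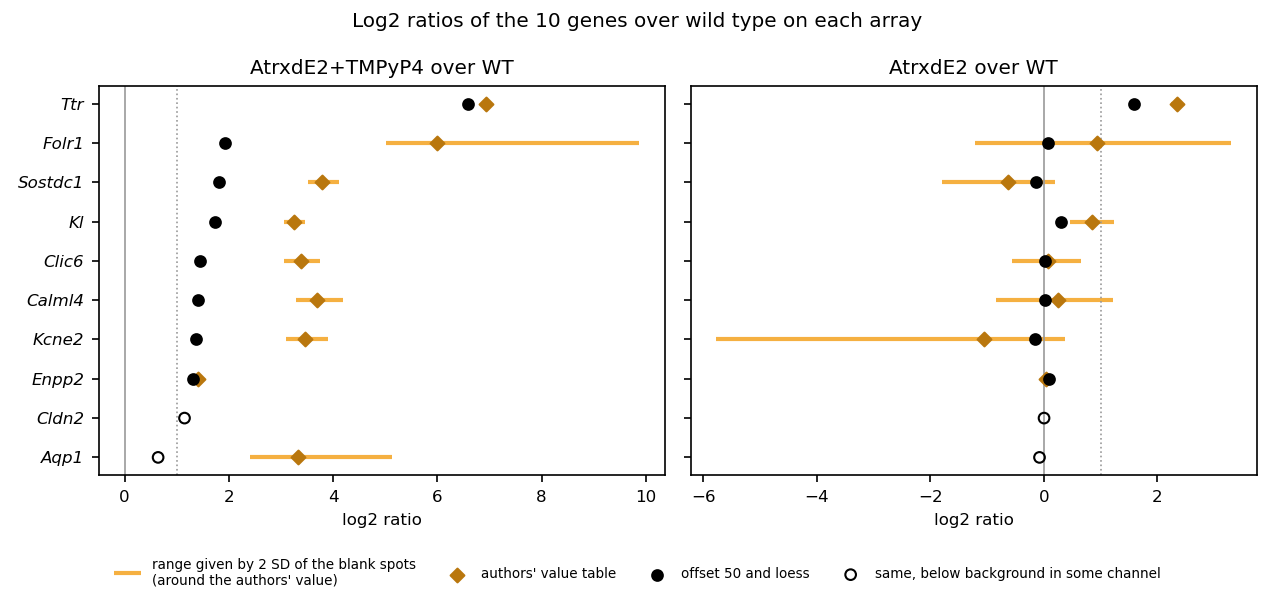
Log2 ratios over wild type of the 10 genes in AtrxdE2+TMPyP4 (left) and AtrxdE2 (right), from the normalization with an offset of 50 and from the authors' value table, with bars for a shift of 2 SD of the blank spots around the latter. In AtrxdE2+TMPyP4 all marks lie to the right of 0, while in AtrxdE2 Ttr alone lies past the dotted line at 2-fold after normalization with the offset.

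Of the 10 genes, 8 were measured in all 4 channels, all but Aqp1 and Cldn2. In AtrxdE2+TMPyP4 over wild type, 8 of these 8 were at least 2-fold higher, against 0.162% of the 13596 measured genes (22 genes), and 0 were at least 2-fold lower, against 0.0294% (4 genes). Since the set was chosen on this contrast, nothing is read from that count. With each spot's local background in place of the blank mean, 4 of the 8 were past 2-fold (Ttr, Kl, Sostdc1 and Enpp2), against 2.43% of all measured genes under that setting. The median log2 ratio of the 8 was 1.59, against 0.0095 over all measured genes, and they held ranks 1, 4, 5, 6, 7, 9, 10 and 12 from the top. In AtrxdE2 over wild type, 1 of the 8 was at least 2-fold higher (Ttr), against 0.0221% of all measured genes (3 genes), and 0 were at least 2-fold lower, against 0.00736% (1 gene). The median of the 8 in that comparison was 0.051, against -0.003 over all measured genes. In the authors' value table, 8 of the 8 were at least 2-fold higher in AtrxdE2+TMPyP4, against 1.53% of measured genes, and 0 were lower, against 0.5%. For AtrxdE2, the authors' value table had 1 of the 8 at least 2-fold higher (Ttr), against 0.765%, and 1 at least 2-fold lower (Kcne2), against 0.794%.

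The difference of both ratios, AtrxdE2+TMPyP4 minus AtrxdE2, was at least 1 log2 unit in 8 of the 8, against 0.206% of all measured genes, with a median of 1.48, and 0 were lower by as much, against 0.0956%. In the authors' value table it was also 8 of 8, against 2.98% of measured genes, with 0 lower, against 1.58%. It was 4.99 for Ttr (6.77 as the direct difference of the Cy3 channels), 1.95 for Sostdc1, 1.86 for Folr1, 1.53 for Kcne2, 1.43 for Kl, 1.42 for Clic6, 1.39 for Calml4 and 1.23 for Enpp2. This difference is built from the same AtrxdE2+TMPyP4 channel as the ratio over wild type and is not a separate measurement. The SD among the 500 genes of most similar signal was between 0.17 and 0.30 for these differences, between 0.12 and 0.26 for AtrxdE2+TMPyP4 over wild type, and between 0.13 and 0.25 for AtrxdE2 over wild type.

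Ttr stood far above the other 7 genes. After Ttr, the log2 ratios in AtrxdE2+TMPyP4 over wild type ran from 1.93 (Folr1) through Sostdc1, Kl, Clic6, Calml4 and Kcne2 to 1.32 (Enpp2), and neighbours in that order lay 0.12 or less apart, within the SD among genes of similar signal, except Kl and Clic6, which lay 0.29 apart. The ends of that order, Folr1 and Enpp2, lay 0.61 apart. Repeated spots of a pair of bright positive controls, 24 spots each, varied with an SD of 0.087 log2 units on that array. The authors' value table orders the same genes otherwise, with Calml4 and Kcne2 ahead of Clic6 and Kl. There Folr1, at 6.0 and no lower than 5.01 over the range of the blank spots, lay above Sostdc1, at 3.79 and no higher than 4.12. The range of Folr1 reaches 9.88 and so includes the value of Ttr, 6.94. For AtrxdE2+TMPyP4 minus AtrxdE2, the authors' value table put Folr1, at 5.07, above Ttr, at 4.60. Enpp2, at 1.40, lay in the authors' value table below Kl, at 3.25 and no lower than 3.06.

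The wild-type channels of both arrays were compared with each other, although the loess and Aquantile steps use both channels of a spot, so the mutant pools enter these levels. Normalized wild-type levels on the AtrxdE2+TMPyP4 array minus those on the AtrxdE2 array were 1.78 log2 units for Ttr and between -0.085 (Enpp2) and 0.19 (Folr1) for the other 7 measured genes. At least 2-fold higher was thus 1 of 8, against 0.11% of all measured genes, and 0 were at least 2-fold lower, against 0.618%. With quantile normalization of all 4 channels and no loess, the difference was 1.76 for Ttr and between -0.088 (Clic6) and 0.040 (Kcne2) for the other 7, so their small differences had no settled direction. On the AtrxdE2+TMPyP4 array, the wild-type signal of Ttr was 0.361% of the Cy3 signal of the same spot. Whether light from a bright Cy3 spot reaches the Cy5 reading was not tested.

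**Figure D3:**
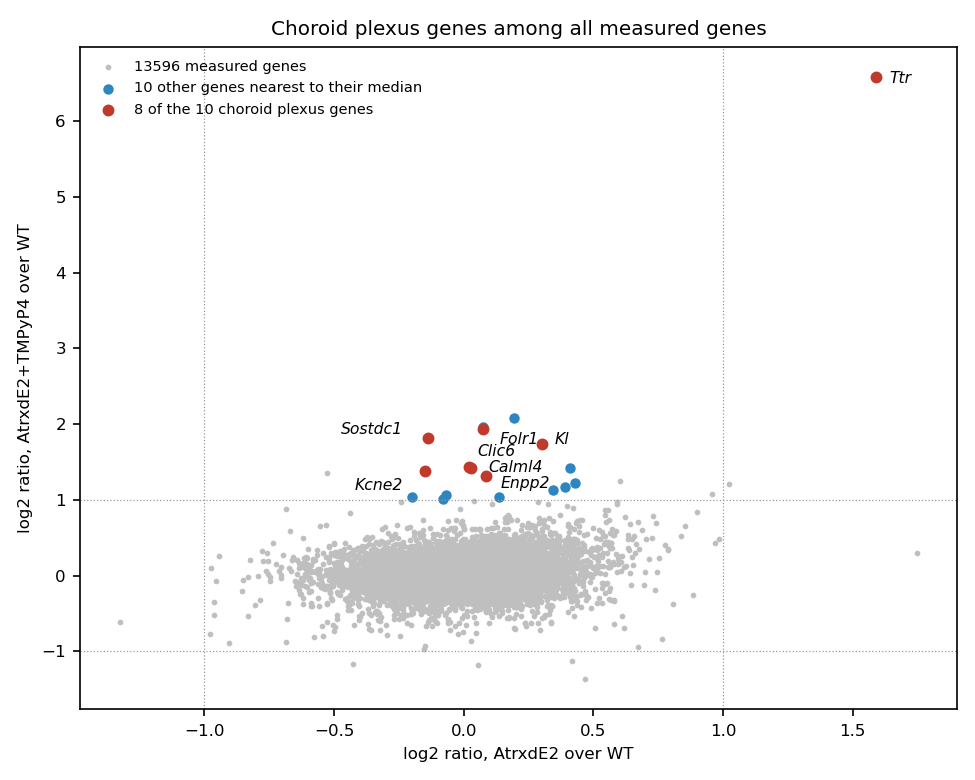
Log2 ratio in AtrxdE2+TMPyP4 over wild type (vertical) against that in AtrxdE2 over wild type (horizontal) for the 13596 measured genes, with the 8 measured choroid plexus genes in red and the 10 nearest other genes in blue. Apart from Ttr at 6.59 and 1.59, the red points lie between 1.32 and 1.93 on the vertical axis and between -0.15 and 0.30 on the horizontal one.

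Other genes known from choroid plexus epithelium, listed with earlier results of these data known, were mostly not past 2-fold. Of 67 listed, 56 had a probe and 49 were measured. In AtrxdE2+TMPyP4 over wild type, 2 of the 49 were at least 2-fold higher, against 0.162% of all measured genes. At least 2-fold lower were 0 of the 49, against 0.0294%. Above 0 lay 36 of the 49, against 52.8% of all measured genes, and the median was 0.13. The 2 past 2-fold encode secreted proteins: Ecrg4 (printed 1500015O10Rik on the array) with 2.08, and the ceruloplasmin gene Cp with 1.08. In AtrxdE2 over wild type, 0 of the 49 were 2-fold higher, against 0.0221%, with a median of 0.042. In the authors' deposited ratios, 11 of the 49 were at least 2-fold higher in AtrxdE2+TMPyP4, against 1.53% of all measured genes.

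Ecrg4 had a signal of 670 in AtrxdE2+TMPyP4 and 79.4 in AtrxdE2, against 38.6 and 40.02 in wild type, and a log2 ratio of 0.20 in AtrxdE2. Cp, which encodes a copper-carrying ferroxidase, had 238 and 192 in these pools, against 30.5 and 42.3 in wild type. Its ratio was 0.96 in AtrxdE2, so that Cp was high in both mutant pools. The 13 measured secreted proteins had a median of 0.39 in AtrxdE2+TMPyP4, and the lowest was the cystatin gene Cst3 with -0.32. The clotting factor gene F5 was not measured in all channels, with signals of 39.9 in AtrxdE2+TMPyP4 and 17.0 in AtrxdE2, against -0.33 and 8.78 in wild type.

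None of the 20 measured genes of ion, water and solute transport was past 2-fold in AtrxdE2+TMPyP4 over wild type, and their median was 0.10. The highest was the cation channel gene Trpv4 with 0.69 (1.46 in the authors' value table), and the lowest the sodium pump subunit gene Atp1b1, which neurons and glia also express, with -0.65. Among 7 receptors and membrane proteins, 0 were past 2-fold, the median was 0.079, and values ran from 0.28 (Abca4) to -0.25 (Cd9). Abca4 alone of the 7 was past 2-fold in the authors' value table, with 1.18. Steap1, which encodes a membrane protein, had a signal of 103 in AtrxdE2+TMPyP4 and 4.92 in AtrxdE2, against 5.89 and 5.52 in wild type. Its AtrxdE2 signal was not above background. In channel levels Steap1 was at least 2.21-fold higher in AtrxdE2+TMPyP4 than in AtrxdE2. The tetraspanin gene Tspan8 had signals of 51.8 in AtrxdE2+TMPyP4 and 20.3 in AtrxdE2, against 1.79 (not above background) and 4.97 in wild type.

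All 6 measured genes of epithelial junctions and cell adhesion lay above 0 in AtrxdE2+TMPyP4 over wild type, against 52.8% of all measured genes, from 0.35 (Perp) to 0.11 (Ocln), with a median of 0.21 and 0 past 2-fold. Of 3 transcription factors, Msx1 had 0.80, Otx2 0.62 and Zic1 -0.57. In the authors' value table these were 1.57, 1.14 and -0.86. Lmx1a, a factor of the roof plate from which this epithelium derives, was above background in AtrxdE2+TMPyP4 alone, with a signal of 6.92 and a bound of at least 1.06-fold over wild type. Close relatives of the 10 genes stayed near the centre. The 20 measured claudins, aquaporins, KCNE and CLIC genes had a median of -0.062 with 0 past 2-fold, from 0.27 (Clic3, 2.17 in the authors' value table) to -0.42 (Clic4). The 15 measured relatives in the folate, klotho, SOST, ENPP and calmodulin-like families had a median of -0.045 with 0 past 2-fold, from 0.42 (the folate transporter gene Slc46a1) to -0.22 (Enpp6). Izumo1r (printed Folr4 on the array) was above background in AtrxdE2 alone, with a signal of 7.63, and Cldn15 in wild type on the AtrxdE2 array alone, with 5.62.

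**Figure D4:**
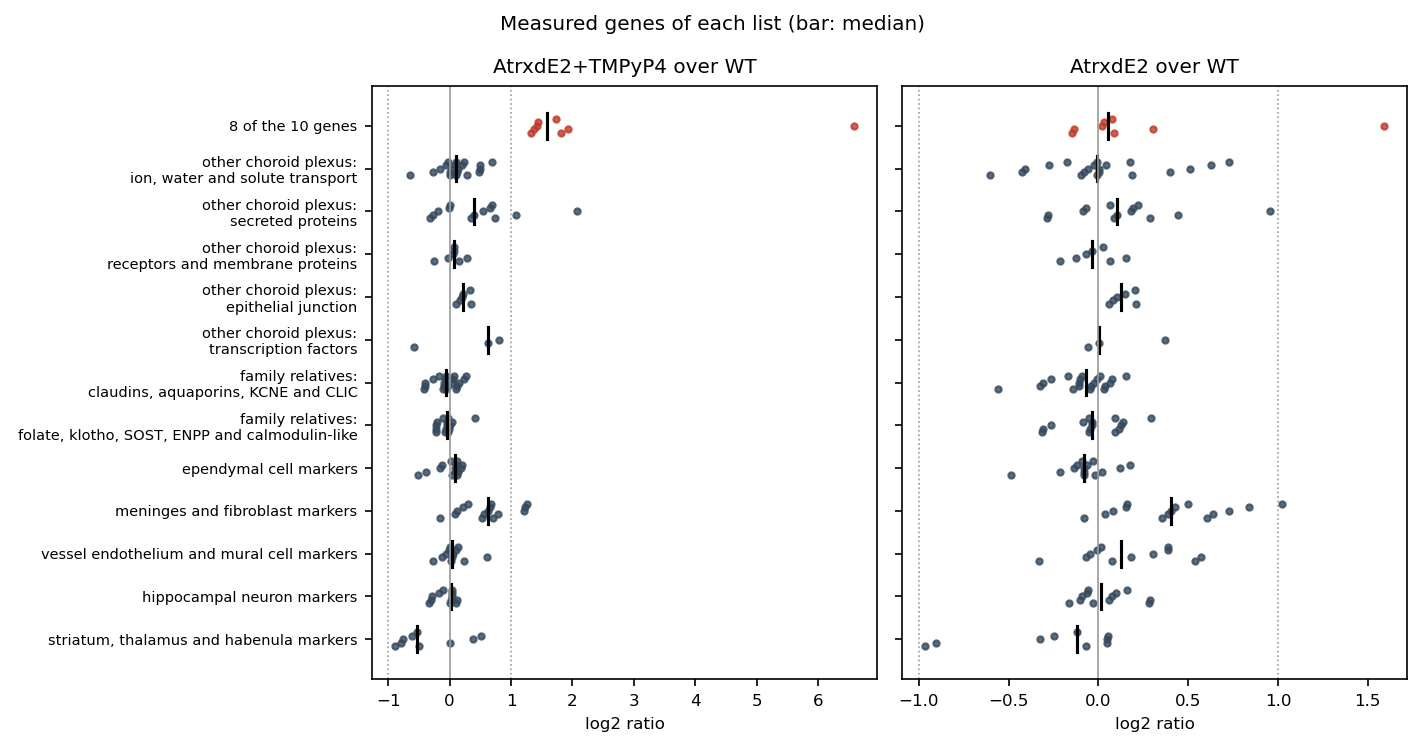
Log2 ratio in AtrxdE2+TMPyP4 over wild type (left) and in AtrxdE2 over wild type (right) for the measured genes of each list, 1 point per gene, with the list's median as a bar. The 8 choroid plexus genes lie past 2-fold on the left with a median of 1.59, whereas the medians of the other lists lie between -0.52 and 0.62.

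Markers of other cells that a hippocampal dissection can hold were set beside these genes. Of the 14 measured markers of ependymal cells, the ciliated lining of the ventricles, 0 were past 2-fold in AtrxdE2+TMPyP4 over wild type, with a median of 0.090, from 0.20 (Tekt1) to -0.52 (Tppp3). Their summed signal was 2367 in AtrxdE2+TMPyP4 and 2275 in AtrxdE2, against 1165 and 1676 in wild type. Such sums, here and for the lists below, are raw, so mutant pools (Cy3) and wild type (Cy5) do not compare by them. The 12 measured vessel markers had a median of 0.034 and 0 past 2-fold, from 0.62 (Tagln) to -0.28 (Cldn5), with summed signals of 8147 and 7763, against 3415 and 4066 in wild type.

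After normalization with the offset, markers of the meninges and fibroblasts were the other cell list with genes past 2-fold over wild type. In AtrxdE2+TMPyP4 over wild type, 3 of 15 were at least 2-fold higher, against 0.162% of all measured genes. These were Crabp2 with 1.25, Ogn with 1.23 and Mgp with 1.21. Above 0 lay 14 of 15, against 52.8% of all measured genes. The median was 0.62 in AtrxdE2+TMPyP4 and 0.40 in AtrxdE2, and Mgp, a matrix protein gene, was 2-fold higher in AtrxdE2 too, with 1.02. The lowest was Aldh1a2 with -0.15. Summed signals were 5961 in AtrxdE2+TMPyP4 and 5165 in AtrxdE2, against 1695 and 2331 in wild type. In the difference of AtrxdE2+TMPyP4 minus AtrxdE2, 0 of the 15 were past 2-fold, against 0.206% of all measured genes higher. The median was 0.12, and 1.48 for the 8 choroid plexus genes, which were chosen with these ratios known. In the authors' value table, Ogn was past 2-fold in that difference, with 1.32, against 2.98% of all measured genes. Over wild type, that table had 5 of the 15 at least 2-fold higher in AtrxdE2+TMPyP4, against 1.53%. The part of meninges or other tissue in the result was not tested.

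The labelled tissue was checked against hippocampal neurons and against neighbouring regions. Of 13 hippocampal markers with a probe, 12 were measured, with a median of 0.022 in AtrxdE2+TMPyP4 over wild type and 0 past 2-fold, from 0.13 (Bok) to -0.34 (Neurod2). Their summed signals were 6727 in AtrxdE2+TMPyP4 and 5805 in AtrxdE2, against 3026 and 3608 in wild type. Fibcd1, a marker of pyramidal neurons, was not above background in AtrxdE2+TMPyP4. The 9 measured markers of striatum, thalamus and habenula had a median of -0.52 with 0 past 2-fold, from 0.52 (Slc17a6) to -0.89 (Ppp1r1b). Above 0 lay 3 of the 9, against 52.8% of all measured genes: Slc17a6, Tac2 with 0.38 and Calb2 with 0.011. Below 0 were Ppp1r1b, Prkcd with -0.79, Rgs9 with -0.76, Drd1 with -0.60, Penk with -0.52 and Drd2 with -0.50. Drd1 and Penk are printed Drd1a and Penk1 on the array. In the authors' value table the median was -0.87. Drd1, Drd2, Rgs9 and Prkcd were at least 2-fold lower there, against 0.5% of all measured genes. The list mixes regions, so its median does not describe each of them. Ppp1r1b differed between the wild-type channels too, by -1.02 for the AtrxdE2+TMPyP4 array minus the AtrxdE2 array. Their summed signals were 4192 in AtrxdE2+TMPyP4 and 5494 in AtrxdE2, against 2853 and 5981 in wild type, so the wild-type channels also differed. Tcf7l2 and Lhx9, markers of thalamus and habenula, were not above background in any channel. The 9 measured markers of the same list were above background in all 4 channels by the definition of measured. The share of these regions in the pools was not tested beyond these values.

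By the distance of both ratios over wild type from the median pair of the 8 measured genes, the 10 nearest other genes were Guca1a, Rspo1, Ecrg4, Ogn, Emb, Ddit4l, Nupr1, Rdh5, Spp1 and Rdm1, at distances between 0.38 and 0.60 log2 units. The measure uses 1 value from each of the 2 arrays. Guca1a, a guanylate cyclase activator gene, was nearest, with log2 ratios of 1.96 in AtrxdE2+TMPyP4 and 0.074 in AtrxdE2. Its signals were 672 in AtrxdE2+TMPyP4 and 59.1 in AtrxdE2, against 45.6 and 34.7 in wild type. Rspo1, which encodes a secreted enhancer of Wnt signalling, had ratios of 1.42 and 0.41, and Emb, which encodes the membrane protein embigin, had 1.07 and -0.070. Ogn is also among the meninges markers above.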

How the data were processed

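Two-colour oligonucleotide arrays, 2 in number, were used. Each deposited scanner table gives, per the file headers, a spot's median Cy5 and Cy3 intensity, combined over several gains, with local background and quality marks. The authors' value table gives normalized log2 ratios, mutant pool over wild type, per the labels. Its values were found to equal the log2 ratio of blank-subtracted Cy3 to blank-subtracted Cy5, minus a constant of 1.17 on the AtrxdE2+TMPyP4 array and 0.652 on the AtrxdE2 array, within 0.01 for 99.99% of values, which settles the direction. The sources used here do not give the scanning software.

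The background was the trimmed mean of 2736 blank spots (0.05 left out at each end). Intensities were corrected by normexp with an offset of 50 and normalized by loess within each array, with control spots at weight 0 (limma 3.58.1, R 4.3.3). The offset narrows the ratios of dim probes. The procedure was tested on simulated data. Measured probes carried no bad mark and exceeded the blank mean by 2 SD in all 4 channels (18664 of 23473 probes, 13596 named genes). Probes of a gene were averaged. The annotation names 1 gene for 16631 probes and none for 6842. Of its 16446 symbols, 12501 are current and 3883 matched a current gene through a synonym. Dyes were not swapped, and dye cannot be told apart from group within an array. Levels per channel, used for bounds and for the wild-type comparison, were taken after loess and Aquantile.

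A bound sets the brighter group's channel level against the lowest signal above background. A ratio within an array can lie below such a bound. With 1 array of 1 pool per group, differences are described by a fixed rule of 2-fold beside the SD among the 500 genes of most similar signal. The 10 genes, the 12 lists set beside them and the blank-mean background were chosen with earlier results of these data known. Named were all 10 genes, the highest and lowest of each list, those past 2-fold or above background in 1 group alone, and the 10 nearest genes. F5, Tspan8, Steap1, Otx2, Cldn1, Fibcd1, Tcf7l2, Lhx9, Tac2, Calb2, Drd1, Drd2, Rgs9, Penk and Prkcd fall outside this rule. They were chosen after their values were seen. Summed signals of a list count values below the blank mean as 0. Alternatives were plain subtraction, the local background, median centring, an offset of 16, the authors' value table, no filter, the other array's wild-type channel, the direct difference of the Cy3 channels, and quantile normalization of all 4 channels for the wild-type comparison.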

Additional observations from a re-analysis of the deposited data

Results flagged for a closer look

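Kcne2 and Sostdc1 were picked out because their ratios over wild type had opposite directions in the mutant pools. Kcne2 had a log2 ratio of 1.38 in AtrxdE2+TMPyP4 and -0.15 in AtrxdE2. Sostdc1 had 1.82 in AtrxdE2+TMPyP4 and -0.14 in AtrxdE2. Each value is 1 pool on 1 array, and the difference was not tested. The AtrxdE2 values lie close to the SD among the 500 genes of most similar signal, which was 0.13 for Kcne2 and 0.15 for Sostdc1.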

How the results depend on the processing

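No paired analysis was possible because each group has 1 pool on 1 array. With 8 measured genes, the count at least 2-fold higher in AtrxdE2+TMPyP4 over wild type was 8, and 4 with the local background (Ttr, Kl, Sostdc1 and Enpp2). It was 8 of 8 under the other settings and 9 of 10 with no filter. The median of 1.59 was 3.62 with plain subtraction, 0.998 with the local background, 1.77 with median centring, 2.28 with an offset of 16, 3.58 in the authors' value table and 1.43 with no filter. For AtrxdE2+TMPyP4 minus AtrxdE2, the count of 8 was 4 with the local background (Ttr, Kcne2, Sostdc1 and Enpp2), and the median of 1.48 was 4.04 with plain subtraction, 0.95 with the local background, 2.26 with an offset of 16 and 3.93 in the authors' value table. As the direct difference of the Cy3 channels that median was 1.63, with Ttr at 6.77 in place of 4.99. The median between the wild-type channels was 0.14, and 0.013 with quantile normalization of all 4 channels. For AtrxdE2 over wild type, the other array's wild-type channel turned the count of 1 into 0 and the median of 0.051 into -0.11, with Ttr at -0.19 and Folr1 at -0.11. Folr1 was -0.093 with median centring and Clic6 -0.27 with the local background. Values were called unchanged within the SD of genes nearest in signal, and the cause of these changes was not tested. Over all measured genes, the counts higher and lower in AtrxdE2+TMPyP4 over wild type were 22 and 4, against 175 and 84 with plain subtraction, 330 and 5 with the local background, 64 and 1 with median centring, 40 and 9 with an offset of 16, 208 and 68 in the authors' value table, and 60 and 136 with the other wild-type channel. In AtrxdE2 over wild type they were 3 and 1, and between 8 and 127 higher and between 1 and 123 lower under the alternatives. In AtrxdE2+TMPyP4 minus AtrxdE2 they were 28 and 13, and between 58 and 455 higher and between 12 and 228 lower. Dim signals, near the blank spots in wild type, limit the size of most ratios here.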
